A study of Mus musculus with 6 samples.

Results

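The genes described here are *Igf1*, its receptor *Igf1r*, the receptor substrates *Irs1* and *Irs2*, and the binding proteins *Igfbp2* to *Igfbp7*, chosen by name as the IGF1 pathway and its binding proteins. The choice was made with earlier results of these data known, so counts of these genes against all tested genes are descriptions. They are 10 of the 56748 genes in each deposited table, and all 10 were among the 16605 genes kept for testing. RNA-seq of poly(A) RNA from whole uterus was done on day 4 of pregnancy, at 1600 h, when embryos have not yet attached, with 3 control and 3 *Gp130* ecKO libraries. The *Gp130* ecKO females carried *Ltf*-iCre/+ and *Gp130* flox/flox. Control females are labelled WT, and the study's methods describe controls as either *Ltf*+/+ with *Gp130* flox/flox or wildtype, so the controls may not share 1 genotype. Females of both groups were on the background labelled C57BL/6 (C57BL/6J in the methods), were older than 8 weeks, and had been mated with fertile wildtype males. *Ltf*-iCre acts in the uterine epithelium of adult females, and *Ltf* is also expressed in some immune cells. The labels do not say whether each library came from a separate female, so the p-values measure the spread between these libraries.

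IGF1 is a secreted growth factor that binds the receptor tyrosine kinase IGF1R. The activated receptor phosphorylates the docking proteins IRS1 and IRS2, which recruit PI3-kinase and so engage Akt and mTOR. IGF binding proteins are secreted carriers that hold IGF away from its receptor or release it locally, and IGFBP7 binds IGF only weakly and also binds insulin. In the rodent uterus, *Igf1* is known as an estrogen-induced transcript made mainly in the stroma, acting on the neighbouring epithelium.

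Expected counts per library summed to 13960748 in control 3 and to between 22930513 and 25906443 in the other 5. *Il6st*, the symbol under which *Gp130* is listed, ranged from 452 to 678 CPM (counts scaled to library size, here with TMM) in control and from 349.8 to 388 in *Gp130* ecKO. Control 2 stood nearer to the *Gp130* ecKO libraries (correlation of log2 CPM across genes 0.935 to 0.959) than controls 1 and 3 did (0.880 to 0.919). It correlated at 0.949 and 0.934 with controls 1 and 3, and at 0.935, 0.959 and 0.954 with *Gp130* ecKO 1 to 3. Summed CPM of 10 epithelial markers was 2382 to 4263 in control and 5822 to 7645 in *Gp130* ecKO, and that of 10 stromal markers was 3459 to 4494 and 2102 to 2717. Summed CPM of 8 endothelial markers was 441 to 1217 in control and 267 to 439 in *Gp130* ecKO. None of these markers was at 0 in all libraries. Of the 7 glandular markers, *Prss28* and *Prss29* were at 1876 and 6546 CPM in *Gp130* ecKO 1, above every other library, while *Cxcl15* was at 17.3 there, the lowest of the 6. The ovary and oviduct list summed to 55.1 to 109 CPM in control and 556 to 1199 in *Gp130* ecKO through *Ovgp1* alone, while its other 4 genes had lower means in *Gp130* ecKO. Smooth muscle markers, 9 genes, ranged from 685 to 3232 in control and from 574 to 3460 in *Gp130* ecKO, so the amount of myometrium RNA differed widely among libraries of both groups. In whole uterus, fewer cells of a type and less RNA per cell cannot be told apart.

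Of the 10 genes, *Irs1* alone was higher in *Gp130* ecKO without overlap between the groups, and all 6 binding proteins had lower mean levels in *Gp130* ecKO. With edgeR's quasi-likelihood F test, 0 of the 10 were called at an adjusted p under 0.05 with a change of more than 2-fold, where 0.157% of all tested genes were called (0.126% as higher and 0.0301% as lower). At an unadjusted p under 0.05, 7 of the 10 passed, *Irs1* as higher and *Igfbp2* to *Igfbp7* as lower, against 25.0% of all tested genes (12.1% higher and 12.9% lower). *Igfbp2* passed the expression filter through its control libraries, where it is high, so it adds no support to this count or the next. With a minimum mean CPM of 1, which leaves out *Igfbp2*, 6 passed. The groups did not overlap in CPM for 6 of the 10, namely *Irs1* and all binding proteins other than *Igfbp3*, against 31.3% of all tested genes (15.7% higher and 15.6% lower). The median log2 fold change was −1.05 over the 6 binding proteins and −0.05 over all tested genes. Of the other tools run, edgeR's exact and likelihood ratio tests each called 4 of the 10 (*Irs1* higher; *Igfbp3*, *Igfbp4* and *Igfbp7* lower), and DESeq2 called 3 (*Irs1*, *Igfbp4* and *Igfbp7*). These tests called 7.54%, 7.93% and 9.65% of all genes with an adjusted p, in that order.

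**Figure D1:**
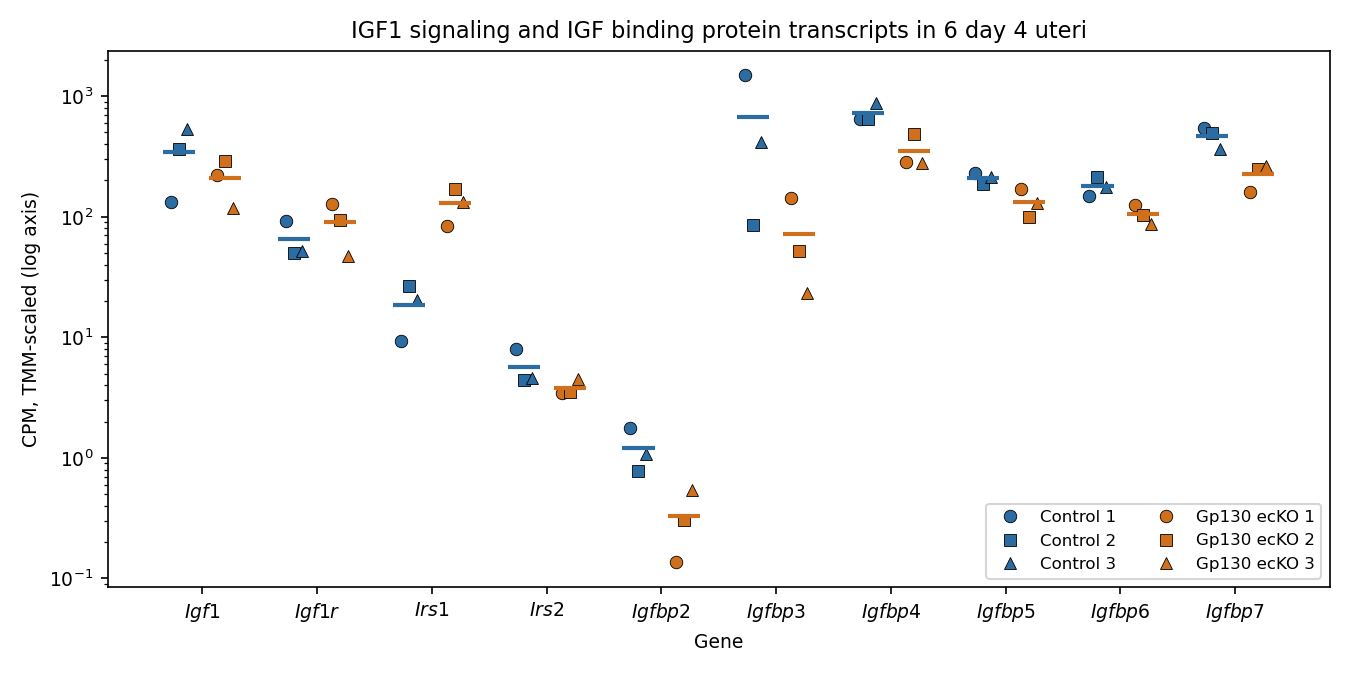
Level of each gene (CPM scaled by TMM, log axis) in 3 control uteri (blue) and 3 *Gp130* ecKO uteri (orange), with the symbol giving the library number and the bar the group mean. *Irs1* lies between 9.26 and 26.5 CPM in control and between 83.4 and 171 in *Gp130* ecKO, while the control values of *Igfbp3* spread from 85.4 to 1496.

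Promoter sequences are shown for *Irs1*, higher in *Gp130* ecKO, and for 3 of the binding proteins, *Igfbp3*, *Igfbp4* and *Igfbp6*, lower. Their windows overlap no exon of a transcript of the same gene, and exons of other genes were not checked. The window of *Igfbp5*, also lower, overlaps no exon of its own gene either and is not shown. Each is the 250 bases before the start of the gene's reference transcript on GRCm39, 5′ to 3′ on the gene's strand, with matches to the searched motifs in capitals. The windows are chr1:82269339-82269588 (minus strand) for *Irs1*, chr11:7164180-7164429 (minus) for *Igfbp3*, chr11:98931814-98932063 (plus) for *Igfbp4* and chr15:102052447-102052696 (plus) for *Igfbp6*.
Irs1: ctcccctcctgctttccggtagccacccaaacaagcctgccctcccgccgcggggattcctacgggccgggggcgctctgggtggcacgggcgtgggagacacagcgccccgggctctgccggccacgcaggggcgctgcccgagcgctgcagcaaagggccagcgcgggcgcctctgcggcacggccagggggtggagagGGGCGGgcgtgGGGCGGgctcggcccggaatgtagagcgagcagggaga
Igfbp3: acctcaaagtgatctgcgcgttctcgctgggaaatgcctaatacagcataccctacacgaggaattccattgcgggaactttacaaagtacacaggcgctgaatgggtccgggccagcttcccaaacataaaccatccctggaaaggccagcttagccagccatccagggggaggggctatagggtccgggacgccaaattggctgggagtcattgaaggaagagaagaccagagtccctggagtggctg
Igfbp4: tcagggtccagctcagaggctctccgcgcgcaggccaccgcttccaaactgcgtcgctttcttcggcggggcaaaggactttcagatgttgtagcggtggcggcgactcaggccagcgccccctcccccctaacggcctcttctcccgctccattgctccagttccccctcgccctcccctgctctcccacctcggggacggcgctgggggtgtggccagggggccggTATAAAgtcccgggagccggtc
Igfbp6: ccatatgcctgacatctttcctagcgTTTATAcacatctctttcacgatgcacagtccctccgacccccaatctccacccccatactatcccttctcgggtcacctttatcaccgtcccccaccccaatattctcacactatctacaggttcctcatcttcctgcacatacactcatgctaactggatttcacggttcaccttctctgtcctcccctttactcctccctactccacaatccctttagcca

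The motifs searched on both strands were the STAT element TTCNNNGAA, the AP-1 element TGANTCA, the FOXO element GTAAACA, the TATA box TATAAA and the Sp1 box GGGCGG. STAT3 is the transcription factor that Gp130 activates, and FOXO factors are held back by IRS and Akt signaling. The STAT, AP-1 and FOXO letters were in 0 of the 10 promoters, against 7.70%, 6.18% and 2.72% of 21757 protein-coding promoters of the same length. The *Irs1* window held 2 Sp1 boxes, 49 and 38 bases before the start, and was 75.6% G and C, against a median of 53.2% over all promoters. *Igf1r*, *Irs2*, *Igfbp2* and *Igfbp7* held the Sp1 box too, making 5 of 10 against 36.3% of all promoters. *Igfbp4* held the TATA box 22 bases before its start, *Igfbp6* held it on the opposite strand 224 bases before, and *Igfbp3* held none of the 5 motifs, where 11.9% of all promoters hold the TATA box. The Sp1 box of *Irs1* was thus also in the lower *Igfbp2* and *Igfbp7*, and was not in the other 4 binding proteins. These letters in these windows say nothing of elements elsewhere.

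The ligand varied more within groups than between them. *Igf1* (ENSMUSG00000020053, GRCm39 chromosome 10, 87693642 to 87772904, plus strand) was at 133, 366 and 537 CPM in controls 1 to 3 and at 221, 291 and 118 in *Gp130* ecKO 1 to 3. The *Gp130* ecKO values lay within the control range or just below it. With a log2 fold change of −0.72 ± 0.51 (SE), *Igf1* had an adjusted p of 0.408 in edgeR, and the fold change ranged from −1.08 to −0.25 as each uterus was left out. The length that RSEM estimated for *Igf1* from its mix of isoforms was 2751 bases in control 1 and 3506 to 3774 bases in the other 5 libraries, so the library with the least control *Igf1* also used a shorter mix.

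The receptor showed the same kind of spread. *Igf1r* (ENSMUSG00000005533, chromosome 7, 67601518 to 67883416, plus strand) was at 92.4, 50.4 and 52.0 CPM in control and at 128, 94.5 and 47.5 in *Gp130* ecKO. Libraries 1 and 2 of *Gp130* ecKO lay above all controls, and library 3 lay below them. The log2 fold change was 0.47 ± 0.39 (SE), with an adjusted p of 0.471 in edgeR, and it was 0.13 without *Gp130* ecKO 1 and 0.84 without control 1.

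The substrates differed from each other. *Irs1* (ENSMUSG00000055980, chromosome 1, 82210822 to 82269338, minus strand), a docking protein of both the IGF1 and the insulin receptor, was at 9.26, 26.5 and 20.2 CPM in control and at 83.4, 171 and 133 in *Gp130* ecKO. The lowest *Gp130* ecKO library held more than 3 times the level of the highest control. Its log2 fold change was 2.79 ± 0.43 (SE), the largest of the 10 genes upward, with an unadjusted p of 0.00027 and an adjusted p of 0.0548 in edgeR, just outside the threshold. Over the other tests, scalings, filters and left-out uteri the adjusted p ranged from 3.85e-08 to 0.142, and leaving out any uterus kept the log2 fold change between 2.49 and 3.18. Without control 2, *Irs1* was called, with an adjusted p of 0.0204 in edgeR. Leaving out control 2 also raised the calls over all tested genes, from 26 of 16605 to 897 of 17142. *Irs1* was not called when any other uterus was left out.

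*Irs2* (ENSMUSG00000038894, chromosome 8, 11034681 to 11059499, minus strand), the second substrate of these receptors, was low in every library, at 7.93, 4.43 and 4.6 CPM in control and at 3.48, 3.54 and 4.48 in *Gp130* ecKO. The highest *Gp130* ecKO value lay above the lowest control value by a small margin in CPM, while in TPM the groups did not overlap (0.92 to 1.56 in control and 0.77 to 0.89 in *Gp130* ecKO). It differed by −0.57 ± 0.35 (SE) in log2 fold change, with an edgeR adjusted p of 0.339, and by −0.21 without control 1. Per length, in the deposited TPM, the ratio of *Irs1* to *Irs2* was 0.808, 4.13 and 3.03 in control and 16.6, 33.5 and 20.4 in *Gp130* ecKO. The ratio did not overlap between groups, and the difference of 3.38 in log2 ratio had an exact two-sided permutation p of 0.1, the smallest that 3 against 3 can give. *Irs1* exceeded *Irs2* in 5 of the 6 uteri, the exception being control 1.

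**Figure D2:**
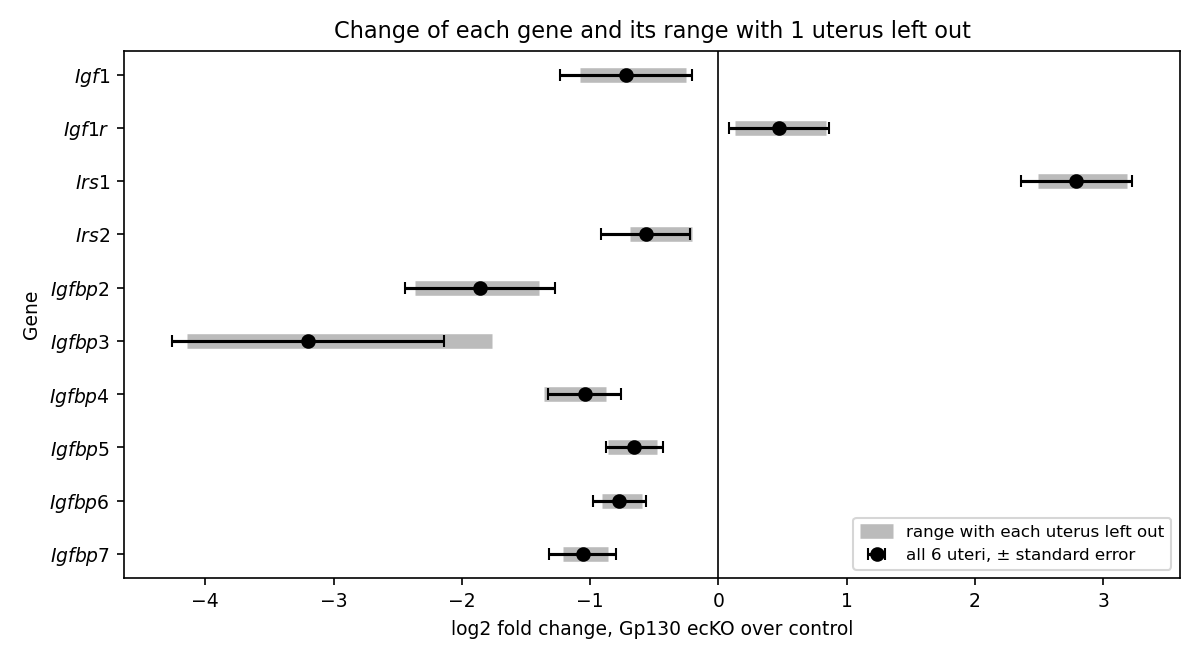
Log2 fold change (*Gp130* ecKO over control) of each gene, with points and bars giving the edgeR estimate and its standard error over 6 uteri and grey bands the range of the estimate with each uterus left out in turn. Every band stays on 1 side of 0, and that of *Igfbp3* is the widest, from −4.14 to −1.76.

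*Igfbp3* (ENSMUSG00000020427, chromosome 11, 7156086 to 7164179, minus strand), the main IGF carrier of serum, had the lowest log2 fold change and the widest spread of the 10. It was at 1496, 85.4 and 418 CPM in control and at 143, 52.0 and 23.3 in *Gp130* ecKO. Control 2 lay below *Gp130* ecKO 1, so there was overlap, and controls 1 and 2 differed from each other by more than most libraries of opposite groups. *Igfbp3* thus had a log2 fold change of −3.20 ± 1.06 (SE) and an edgeR adjusted p of 0.133, and the fold change moved to −1.76 without control 1 and to −4.14 without *Gp130* ecKO 1. *Igfbp1*, whose gene ends 3539 bases from *Igfbp3* on the opposite strand, was at or below 0.364 CPM in every library and was not tested.

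*Igfbp7* and *Igfbp4* had the highest mean TPM of the binding proteins in both groups and had similar log2 fold changes. *Igfbp7* (ENSMUSG00000036256, chromosome 5, 77493130 to 77555931, minus strand), which is abundant in vessels and stroma, was at 547, 494 and 363 CPM in control and at 160, 249 and 266 in *Gp130* ecKO. All *Gp130* ecKO libraries lay below all controls. *Igfbp7* had a log2 fold change of −1.06 ± 0.26 (SE), and in edgeR its p was 0.0041 before and 0.0906 after adjustment. *Igfbp4* (ENSMUSG00000017493, chromosome 11, 98932064 to 98945218, plus strand), an inhibitory carrier that the protease PAPP-A cleaves, was at 644, 649 and 873 CPM in control and at 282, 489 and 281 in *Gp130* ecKO. *Gp130* ecKO 2 stood apart from the other *Gp130* ecKO libraries and nearest to control. *Igfbp4* had a log2 fold change of −1.04 ± 0.28 (SE) and an edgeR adjusted p of 0.103. In TPM, which follows the isoform length that RSEM estimated (1824 bases in *Gp130* ecKO 2 and 1930 to 2207 in the others), *Igfbp4* overlapped between groups, at 372, 435 and 587 in control and 211, 422 and 167 in *Gp130* ecKO.

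*Igfbp5* and *Igfbp6* had smaller log2 fold changes. *Igfbp6* (ENSMUSG00000023046, chromosome 15, 102052697 to 102057953, plus strand), a carrier that prefers IGF2, was at 148, 213 and 176 CPM in control and at 124, 103 and 87.0 in *Gp130* ecKO. *Igfbp5* (ENSMUSG00000026185, chromosome 1, 72897091 to 72914043, minus strand), a carrier that binds extracellular matrix, was at 231, 186 and 213 CPM in control and at 171, 99.9 and 130.2 in *Gp130* ecKO. In both genes the groups did not overlap, but the nearest libraries of opposite groups were close. *Igfbp6* had a log2 fold change of −0.77 ± 0.21 (SE) and an edgeR adjusted p of 0.0993, and *Igfbp5* one of −0.65 ± 0.22 (SE) and an adjusted p of 0.139.

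*Igfbp2* (ENSMUSG00000039323, chromosome 1, 72863606 to 72891634, plus strand), a carrier found in many fluids and tissues, had the fewest counts of the 10, with 44, 20 and 16 counts in control and 3, 8 and 13 in *Gp130* ecKO. These are 1.78, 0.771 and 1.07 CPM in control and 0.136, 0.308 and 0.539 in *Gp130* ecKO. The groups did not overlap, although control 2 and *Gp130* ecKO 3 were separated by a few reads. The log2 fold change of *Igfbp2* was −1.86 ± 0.58 (SE), at an edgeR adjusted p of 0.123. With so few counts in *Gp130* ecKO, the gene passed the expression filter through its control libraries. Its test thus rests on the group where it is high, and no support is drawn from it. *Igfbp2* and *Igfbp5* are neighbours that converge on chromosome 1 with 5456 bases and 0 protein-coding genes between them, and their levels lay far apart in every library.

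Levels of different genes were compared per length, in the deposited TPM. In control, the order of mean TPM was *Igfbp7* (582 ± 87.3, SD, n = 3), *Igfbp4* (465 ± 111), *Igfbp3* (361 ± 382), *Igfbp6* (226 ± 45.7), *Igf1* (133 ± 70.0), *Igfbp5* (47.8 ± 5.30), *Igf1r* (8.76 ± 2.09), *Irs1* (2.72 ± 1.31), *Igfbp2* (1.35 ± 0.494) and *Irs2* (1.17 ± 0.344). Each of the first 4 overlapped with the next in the order, *Igf1*, *Igfbp5* and *Igf1r* were each separated from the next, and *Irs1*, *Igfbp2* and *Irs2* overlapped. In *Gp130* ecKO the order was *Igfbp7* (296 ± 75.2), *Igfbp4* (267 ± 136), *Igfbp6* (140.1 ± 32.5), *Igf1* (84.0 ± 43.6), *Igfbp3* (43.4 ± 37.1), *Igfbp5* (32.1 ± 8.30), *Irs1* (19.8 ± 7.96), *Igf1r* (12.8 ± 7.26), *Irs2* (0.837 ± 0.0611) and *Igfbp2* (0.38 ± 0.23). Neighbours in this order overlapped except *Igfbp4* with *Igfbp6*, *Igf1r* with *Irs2* and *Irs2* with *Igfbp2*. *Irs1* lay below *Igf1r* in control and above it on average in *Gp130* ecKO, where their ranges overlapped.

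The binding protein transcripts were also summed per uterus. *Igfbp2* to *Igfbp7* together reached 2034, 1406 and 1607 TPM in control and 717, 992 and 628 in *Gp130* ecKO. The sums did not overlap (exact two-sided permutation p = 0.1, the smallest possible). Without *Igfbp3* they were 1247, 1359 and 1359 TPM in control and 633, 959 and 615 in *Gp130* ecKO, so the gap was not carried by *Igfbp3* alone. The share of *Igfbp3* varied most among controls, at 38.7%, 3.36% and 15.4% against 11.8%, 3.37% and 1.96% in *Gp130* ecKO (exact permutation p = 0.3). Within *Gp130* ecKO the share of *Igfbp7* varied most, from 29.8% to 50.3%. The shares of all 6 binding proteins overlapped between groups, with exact permutation p from 0.3 to 0.7.

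Set against *Igf1*, the summed binding proteins were 33.3, 10.4 and 7.99 times the *Igf1* TPM in control and 8.55, 7.77 and 15.5 times in *Gp130* ecKO. The groups overlapped, and the mean TPM of ligand and carriers was lower in *Gp130* ecKO for both. The difference in log2 ratio of *Igf1* to the sum was 0.47 (exact permutation p = 0.6), and it was −0.15 without control 1.

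**Figure D3:**
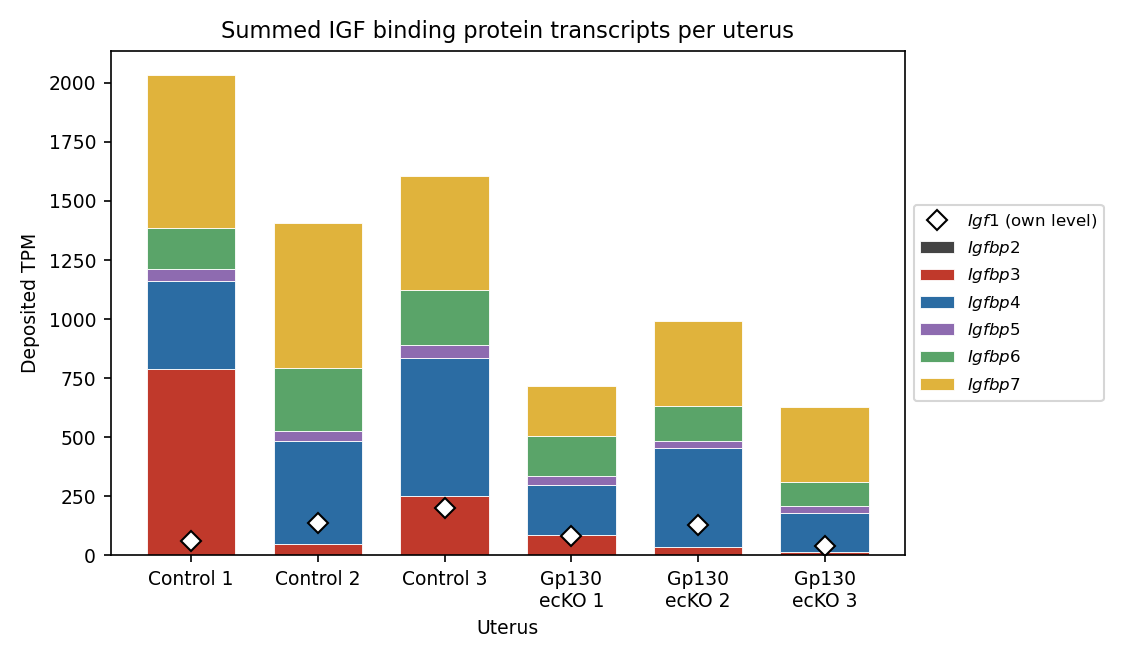
Deposited TPM of *Igfbp2* to *Igfbp7* stacked per uterus, with *Igf1* in the same uterus as a diamond. The stacks reach 1406 to 2034 TPM in control and 628 to 992 in *Gp130* ecKO, and *Igfbp3* (red) is large in control 1 and small in control 2.

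In *Gp130* ecKO, 5 of 10 epithelial markers were higher at an unadjusted p under 0.05, and 6 of 10 stromal and 6 of 8 endothelial markers were lower, against 12.1% higher and 12.9% lower over all tested genes. Each gene was also divided by the summed CPM of a marker list in the same uterus. This scale was chosen after the data were seen, and it shifts all genes of a library alike. Over the 16314 genes detected in every library, the median log2 difference became 0.61 per stromal, 1.00 per endothelial, 0.40 per smooth muscle and −0.97 per epithelial markers. Groups were separate and lower in *Gp130* ecKO for 1.85%, 0.44%, 0.5% and 61.1% of all tested genes on these scales, and separate and higher for 44.3%, 37.7%, 2.23% and 1.91%, so each value is read beside those of its scale. Per stromal markers, all 6 binding proteins still had a lower mean in *Gp130* ecKO, but only *Igfbp7* among them had groups that did not overlap, with a log2 difference of −0.41. Its groups nearly met, with log2 ratios of −3.34 in control 3 and −3.35 in *Gp130* ecKO 3. On this scale 20.4% of the genes had a lower mean. *Igfbp5* was at −0.025 and *Igfbp6* at −0.11 on this scale. Per endothelial markers, 4 of the 6 were lower on average and 0 had separate groups, where 10.6% of the genes had a lower mean, with *Igfbp7* at −0.031 and *Igfbp4* at −0.038. Per smooth muscle markers, all 6 were lower on average, where 27.6% of the genes were. *Igfbp2* alone had separate groups, at −1.56, and it was kept by the filter through its control libraries. *Igfbp3* was at −2.10 per stromal and −1.72 per endothelial markers, with overlapping groups on both scales.

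*Irs1* had separate groups on every one of these scales. Its log2 difference was 3.52 per stromal, 3.90 per endothelial, 3.31 per smooth muscle and 1.93 per epithelial markers, each with an exact permutation p of 0.1. Per epithelial markers, all 6 binding proteins and *Irs2* were lower with separate groups, on the scale where most of the tested genes were. *Igf1* was at 0.062 per stromal markers, with all *Gp130* ecKO libraries inside the control range. The part of cell type makeup in the binding protein differences was not tested.

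**Figure D4:**
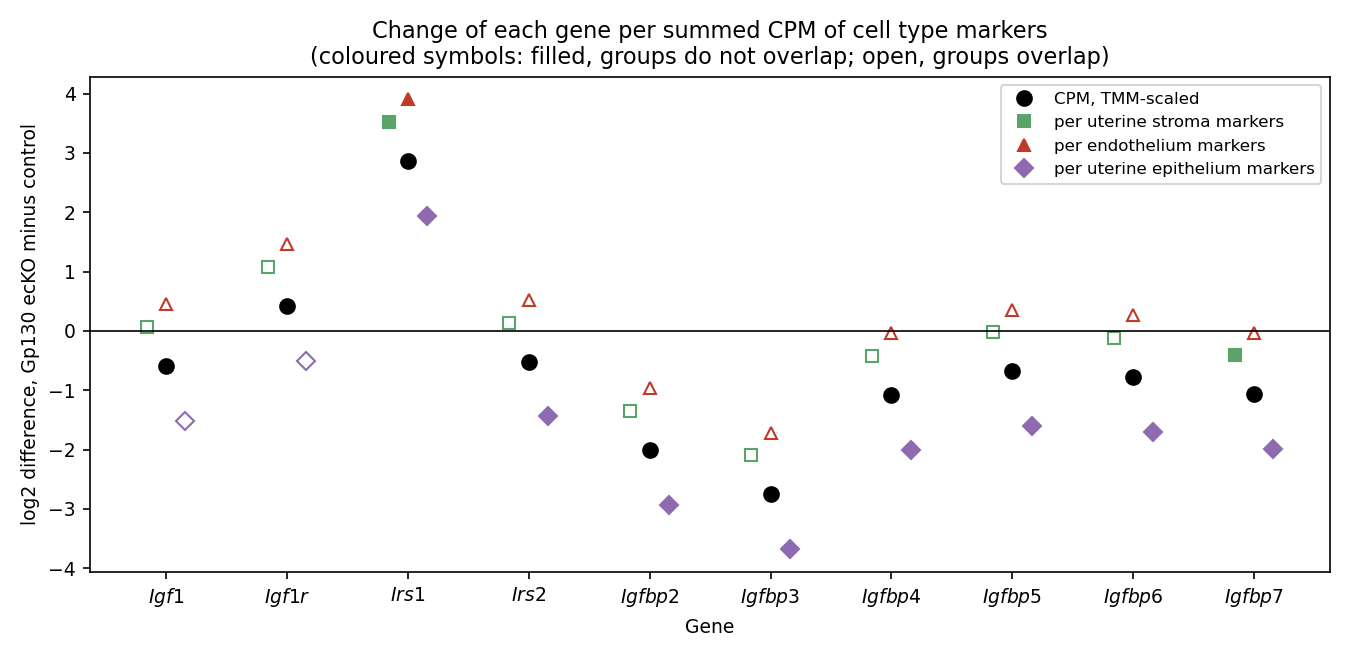
Log2 difference of each gene between *Gp130* ecKO and control, as a difference of mean log2 CPM (black) and after division by the summed CPM of stromal (green), endothelial (red) or epithelial (purple) markers in each uterus. Filled coloured symbols mark groups that do not overlap; *Irs1* is filled and above 0 on all 3 marker scales, and of the binding proteins per stromal or endothelial markers *Igfbp7* per stromal markers is the single filled symbol.

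The rest of the pathway was counted from lists of 71 further genes, of which 61 were tested. The lists were also chosen with earlier results of these data known, so their counts are descriptions. Of the 61 genes, 0 were called by edgeR's quasi-likelihood test, and at an unadjusted p under 0.05 there were 14 higher and 6 lower, or 32.8%, against the 25.0% of all tested genes given above. *Igf2*, the second IGF ligand, was at 8.20 to 11.7 CPM in control and 3.71 to 7.30 in *Gp130* ecKO, with a log2 fold change of −0.82 and an adjusted p of 0.18 in edgeR. The insulin receptor *Insr* (40.2 to 76.2 CPM over the 6 uteri) and the IGF2 clearance receptor *Igf2r* (78.2 to 114) overlapped between groups. Of 11 tested adaptors, 3 passed at the unadjusted level (27.3%, near the 25.0% of all tested genes): 2 were higher, *Grb2* and *Irs3*, and *Grb10*, which dampens the receptors, was lower (log2 fold change −0.69, adjusted p = 0.122).

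Of 11 tested genes listed as proteases of binding proteins or their inhibitors, *Stc1* was higher and *Prss23* lower at an unadjusted p under 0.05, or 18.2%, below the 25.0% of all tested genes. *Prss23* encodes a secreted serine protease, and whether it acts on IGF binding proteins was not tested. It had the smallest p of all these lists, at 544, 164 and 484 CPM in control and 66.1, 57.1 and 70.6 in *Gp130* ecKO. Its groups were well apart, with a log2 fold change of −2.62 ± 0.43 (SE) and an adjusted p of 0.0581 in edgeR. *Stc1*, an inhibitor of PAPP-A, was at 3.40, 28.8 and 5.67 CPM in control and at 70.9, 79.8 and 28.5 in *Gp130* ecKO. Control 2 again lay at the level of a *Gp130* ecKO library, and the adjusted p was 0.15 in edgeR. *Pappa* itself, which cleaves IGFBP4, was at 1.17 to 2.93 CPM in control and 1.62 to 6.08 in *Gp130* ecKO.

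Downstream of the receptor, 11 of 35 PI3K-Akt and mTOR genes were higher and 3 lower at an unadjusted p under 0.05, or 40.0%, against 12.1% higher, 12.9% lower and 25.0% in all over the tested genes. *Tsc1*, a brake on mTORC1, was at 19.1, 40.4 and 34.8 CPM in control and at 106, 120 and 73.0 in *Gp130* ecKO, with a log2 fold change of 1.66 and an edgeR adjusted p of 0.0677. *Pik3r1*, the regulatory subunit that binds phosphorylated IRS proteins, was at 127, 179 and 202 CPM in control and at 383, 357 and 310 in *Gp130* ecKO (1.05, adjusted p = 0.0732). For both genes every *Gp130* ecKO library lay above every control. *Eif4ebp1*, a translation repressor that mTORC1 inactivates, was at 43.6, 23.1 and 43.5 CPM in control and at 11.1, 15.1 and 17.4 in *Gp130* ecKO (−1.34, adjusted p = 0.0833).

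Of the forkhead factors that Akt keeps out of the nucleus, *Foxo1* and *Foxo3* differed in direction. *Foxo1* had a log2 fold change of −1.02 (adjusted p = 0.0929 from edgeR) and *Foxo3* of 0.88 (adjusted p = 0.105), and neither gene's groups overlapped. The groups did overlap for *Foxo4* (0.06, edgeR adjusted p = 0.879) and *Foxo6* (−0.44, adjusted p = 0.695). *Rptor*, the mTORC1 scaffold, was at 0.83 (adjusted p = 0.0906), the Akt-activating kinase *Pdpk1* at 0.63 (0.118), the Akt substrate *Gsk3b* at 0.78 (0.117), the mTORC1 inhibitor *Sesn2* at 1.20 (0.126) and the kinase *Akt2* at −0.49 (0.118). *Pik3cb*, *Pik3r3*, *Sesn1* and *Sesn3* were the other 4 genes higher at an unadjusted p under 0.05. The lists thus held both activators and inhibitors on the higher side.

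**Figure D5:**
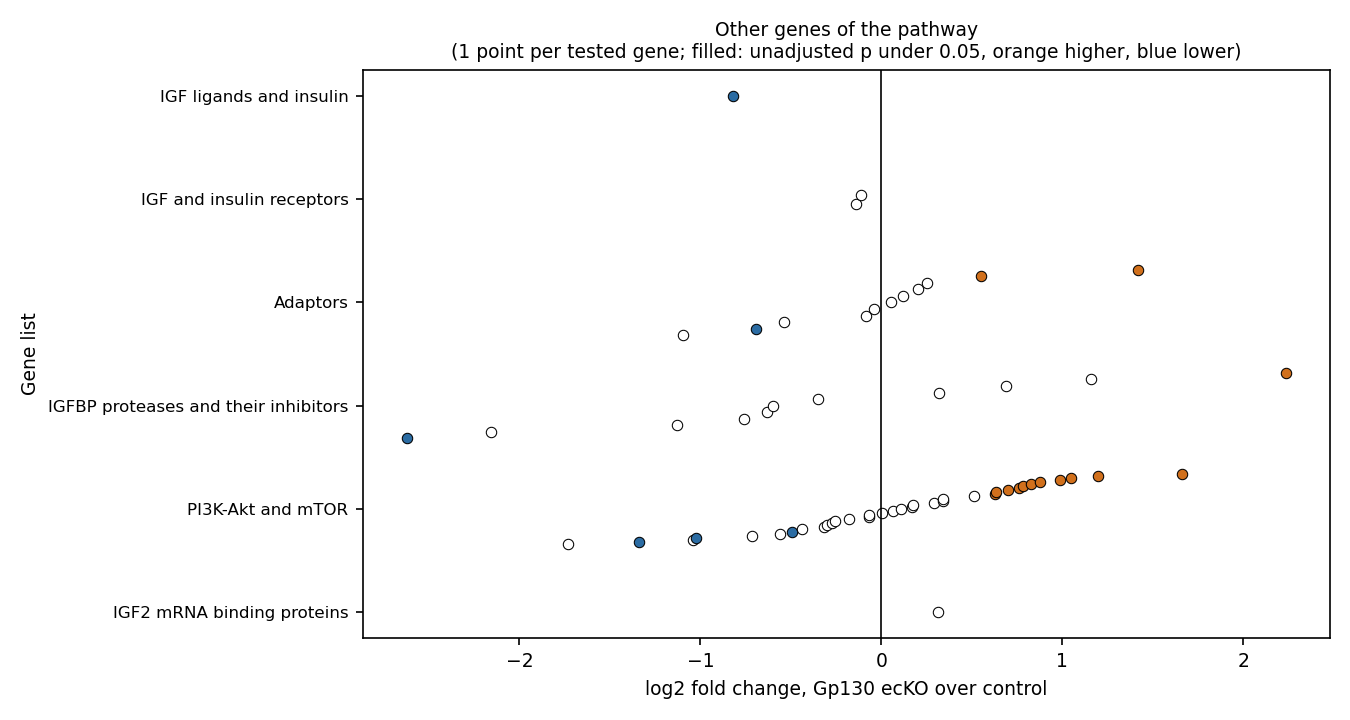
Log2 fold change (*Gp130* ecKO over control, edgeR) of the 61 tested pathway genes beyond the 10 described above, 1 point per gene and 1 row per list. Filled points have an unadjusted p under 0.05; 11 of the 35 PI3K-Akt and mTOR genes are filled to the right of 0 and 3 to the left.

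Genes with the most similar pattern over the 6 uteri were found by the mean absolute difference in centred log2(CPM + 0.5), among 10259 genes with a mean CPM of at least 10. For *Igf1* these were *Smoc1* (0.0989), *Bmp7* (0.120), *Pi15* (0.156), *Igdcc4* (0.169) and *Wfdc1* (0.177). *Smoc1*, which encodes a secreted matrix protein, followed *Igf1* from 30.1, 91.7 and 162 CPM in control to 52.8, 71.9 and 30.9 in *Gp130* ecKO. *Bmp7* encodes a secreted ligand of the BMP family. For *Irs1* the nearest were *Myb* (0.238), *Ptpn22* (0.306), *Atp10b* (0.310), *Rab11fip4* (0.343) and *Hs3st3b1* (0.391). *Myb*, a transcription factor of proliferating progenitors, was at 2.71, 9.52 and 7.40 CPM in control and at 26, 41.3 and 31.3 in *Gp130* ecKO, with control 1 lowest and *Gp130* ecKO 2 highest as for *Irs1*. For *Igfbp3* they were *Fgf9* (0.414), *Pstpip2* (0.476), *Ndrg1* (0.555), *Entpd3* (0.670) and *Mgat4a* (0.679), so the nearest gene lay farther from *Igfbp3* than the nearest of *Igf1* did from *Igf1*. *Fgf9*, a growth factor gene, had 44.0, 2.08 and 12.3 CPM in control and 4.61, 1.04 and 1.58 in *Gp130* ecKO. It shared the gap between controls 1 and 2. With 6 uteri, many genes have similar patterns, and these distances are descriptions.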

How the data were processed

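Values deposited by the authors were the expected count, TPM, FPKM and length of each gene as estimated by RSEM, in a separate file for each library. Per the labels and the study's methods, libraries were made with a strand-specific poly(A) kit and single reads were trimmed (fastp 0.23.2), cleared of ribosomal RNA (SortMeRNA), mapped to GRCm39 (STAR 2.7.10a) and counted (RSEM 1.3.3), which divides shared reads by a model. The annotation version and the strand setting of counting are not given in the sources used here, so reads of *Igf1*, *Igf1r*, *Irs1*, *Irs2*, *Igfbp3*, *Igfbp6* and *Igfbp7*, which overlap genes on the opposite strand, may include reads of those genes. The TPM and FPKM that the authors deposited were scaled by them for length and depth, and were used for levels between genes, shares and ratios.

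Expected counts were rounded to whole numbers, filtered (filterByExpr), scaled by TMM and compared with the quasi-likelihood F test of edgeR 4.0.16 (glmQLFit without the legacy form) in R 4.3.3, with Benjamini-Hochberg adjustment over 16605 genes. Calls needed an adjusted p under 0.05 and a change of more than 2-fold. DESeq2 1.42.0 and edgeR's other tests were alternatives, with other scalings, filters, unrounded counts, a block for the replicate number and the omission of each uterus. Shares and ratios were compared by exact two-sided permutation tests over uteri. Statistics were tested on simulated data. Symbols, positions and promoters were taken from GENCODE M39 (GRCm39), where 56017 of 56748 identifiers were found; its *Irs1* transcript has 9345 bases, against 9144 in the deposited files, so the authors' annotation was another version. The replicates of a group differed beyond counting noise, so none was counted as a duplicate of another's reads. That comparison covers counting noise only, and cannot show whether the libraries came from separate females. The members and gene lists were chosen with earlier results of these data known. Genes named are the 10 members, pathway genes with an unadjusted p under 0.05 (values for the 12 smallest), and 5 nearest patterns for *Igf1*, *Irs1* and *Igfbp3*. Given beside that rule, after their values were seen, were *Insr*, *Igf2r*, *Pappa*, *Igfbp1*, *Foxo4*, *Foxo6*, *Epcam*, *Krt19*, *Prss28*, *Prss29*, *Cxcl15* and *Ovgp1*, and the values of *Igf2* and *Stc1*.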

Additional observations from a re-analysis of the deposited data

How the results depend on the processing

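All 169 log2 fold changes of the 10 genes under 17 other settings kept the direction of the reported value; *Igfbp2* has no value with a minimum mean CPM of 1. The number of genes called, 26 over all tested genes, was 7 with the legacy quasi-likelihood form, 1252 with the exact test, 1317 with the likelihood ratio test, 1593 with DESeq2, 105 without a filter and 6 with the replicate block, and ranged from 1 (without *Gp130* ecKO 3) to 897 (without control 2) as each uterus was left out; the cause was not tested. Without control 1, control 3, *Gp130* ecKO 1 or *Gp130* ecKO 2 it was 2, 3, 6 and 3. Of the 10 genes, 0 were called in the reported test, 4 with the exact and likelihood ratio tests, 3 with DESeq2, 1 without a filter, 1 with the replicate block (*Irs1*, adjusted p = 0.0327 in edgeR) and 0 to 1 as each uterus was left out. Whether the replicate numbers pair the uteri was not tested. With the mean of each group removed, same-numbered libraries had correlations of 0.102, 0.0613 and −0.19. On this measure control 2 correlated best with its own number. Control 1 correlated best with *Gp130* ecKO 3 (0.183), and control 3 with *Gp130* ecKO 2 (0.215). The count at an unadjusted p under 0.05 ranged from 5 (without control 1 or *Gp130* ecKO 2) to 7. Dividing by a marker sum shifts every gene alike, by 0.66 per stromal, 1.04 per endothelial and −0.93 per epithelial markers, and with that shift the sign changed for *Igf1* per stromal (0.062) and endothelial markers (0.45), *Irs2* per stromal (0.14) and endothelial markers (0.52), *Igfbp5* (0.36) and *Igfbp6* (0.27) per endothelial markers, and *Igf1r* per epithelial markers (−0.51). The difference in share ranged from −21.3 (without control 2) to −3.69 percentage points (without control 1) for *Igfbp3*, from −0.86 to 8.26 percentage points for *Igfbp4* and from −2.22 to 8.06 for *Igfbp7*, and the log2 ratio of *Igf1* to the summed binding proteins from −0.15 to 0.88, as each uterus was left out. Depth limits *Igfbp2*, with 3 to 44 counts per library.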
